A study of Drosophila melanogaster with 4 samples.

Results

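The Hox genes of *Drosophila melanogaster* lie in a pair of clusters on arm 3R, the Antennapedia complex and the bithorax complex, and enriched regions of H3K23ac over both clusters were examined in whole embryos. The Antennapedia complex was taken as 3R 2480000 to 2830000 (350 kb) and the bithorax complex as 3R 12480000 to 12800000 (320 kb) on FlyBase release 5, and every region with at least 1 base inside these bounds was included. In the Antennapedia complex these were 48 of the 10281 regions of ChIP replicate 1, 42 of the 7422 regions of ChIP replicate 2 and 90 of the 18064 regions of the combined list of the series. In the bithorax complex they were 43, 37 and 81 regions. H3K23ac, a form of histone H3 acetylated on a lysine of its tail, was pulled down with an antibody from crosslinked chromatin and the bound DNA was sequenced (ChIP-seq). All samples were wild-type embryos of the strain Oregon-R, a standard laboratory stock, aged 14 to 16 hr, with 2 ChIP libraries and 2 input libraries. Formaldehyde at 1.8% was recorded for all of them. Embryos came from population cages and were crosslinked whole, so that cells of every segment and tissue are pooled, and few cells with much of the mark cannot be told apart from many cells with little. No label says whether the replicates were separate collections of embryos, and the spread between them may be technical.

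Hox genes encode homeodomain transcription factors that give the segments of the body their identities, and the order of the genes along the chromosome follows the order of the segments they pattern. Of the genes of the Antennapedia complex, lab and pb act in the head and mouthparts, Dfd in the segments of the jaws, Scr in the labial and the most anterior thoracic segment and Antp in the thorax. Of those of the bithorax complex, Ubx acts in the posterior thorax and the most anterior abdomen, abd-A in the middle abdomen and Abd-B in the posterior abdomen. Both complexes are textbook targets of Polycomb repression, which keeps each gene silent in the segments where it is not used, and a whole embryo therefore mixes cells in which a given Hox gene is on with cells in which it is off. Acetylation of histone tails is in general a feature of active chromatin.

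All 8 Hox genes were found by symbol in a gene table of another genome release, from which only names and order were taken. In order of rising position the table has lab, pb, Dfd, Scr and Antp in the Antennapedia complex and Ubx, abd-A and Abd-B in the bithorax complex. From lab to Antp there are 20 protein-coding genes, among them the homeobox genes zen, zen2, bcd and ftz, which act in the early embryo, and the Ccp84A genes, named for cuticle proteins. From Ubx to Abd-B there are 6. The low-coordinate end of each window is called here its lab side or its Ubx side, and the other end its Antp side or its Abd-B side. This takes the arm to run the same way in both releases. Genes were not placed at single positions, so that a value belongs to a stretch of the complex and not to a gene.

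H3K23ac regions covered both complexes more densely than most of arm 3R. In the Antennapedia complex 29.8% of the bases lay in regions of replicate 1 and 23.9% in regions of replicate 2, against 21.2% and 15.1% in the rest of 3R. Its mean was 26.8% ± 4.20 (SD, n = 2), which was 1.48 times the mean share of the rest of the arm. The ratio was 1.40 in replicate 1 and 1.58 in replicate 2, with an SD of 0.122. For the bithorax complex 25.8% lay in regions of replicate 1 and 24.4% in regions of replicate 2, with a mean of 25.1% ± 0.949. This was 1.38 times the mean share of the rest of 3R, and the ratios of the single replicates had an SD of 0.283. The combined list covered 65.5% of the Antennapedia complex and 63.6% of the bithorax complex, against 43.4% of the rest of 3R. It is not independent of the replicates, since it held 98.5% of the bases covered in either replicate in the Antennapedia complex and 98.3% in the bithorax complex. Both complexes exceeded the rest of the arm in each of the 3 lists, and the bithorax complex did so by 1.21 times in replicate 1 and 1.61 times in replicate 2.

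The complexes were set beside windows of their own length placed every 10 kb along 3R, leaving out windows that touch either complex. These windows overlap each other and are not replicates, and shares of windows describe the place of a complex on the arm and are not p-values. The Antennapedia complex had a covered share at or above that of 86.1% of 2619 windows by the regions of replicate 1, of 86.5% by those of replicate 2 and of 95.9% by the combined regions. For the bithorax complex the same shares of 2628 windows were 74.1% by replicate 1, 87.5% by replicate 2 and 94.8% by the combined regions. Counted on the mean of the replicates, 86.2% of windows were at or below the Antennapedia complex and 81.7% at or below the bithorax complex, but only 60.4% and 66.2% when regions at or under the median score of each list were left out. The median window had a mean covered share over both replicates of 17.4% at the length of the Antennapedia complex and of 17.3% at that of the bithorax complex. The windows themselves ranged from 2.88% to 44.2% at the longer length, so that parts of 3R were covered far more densely than either complex.

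**Figure D1:**
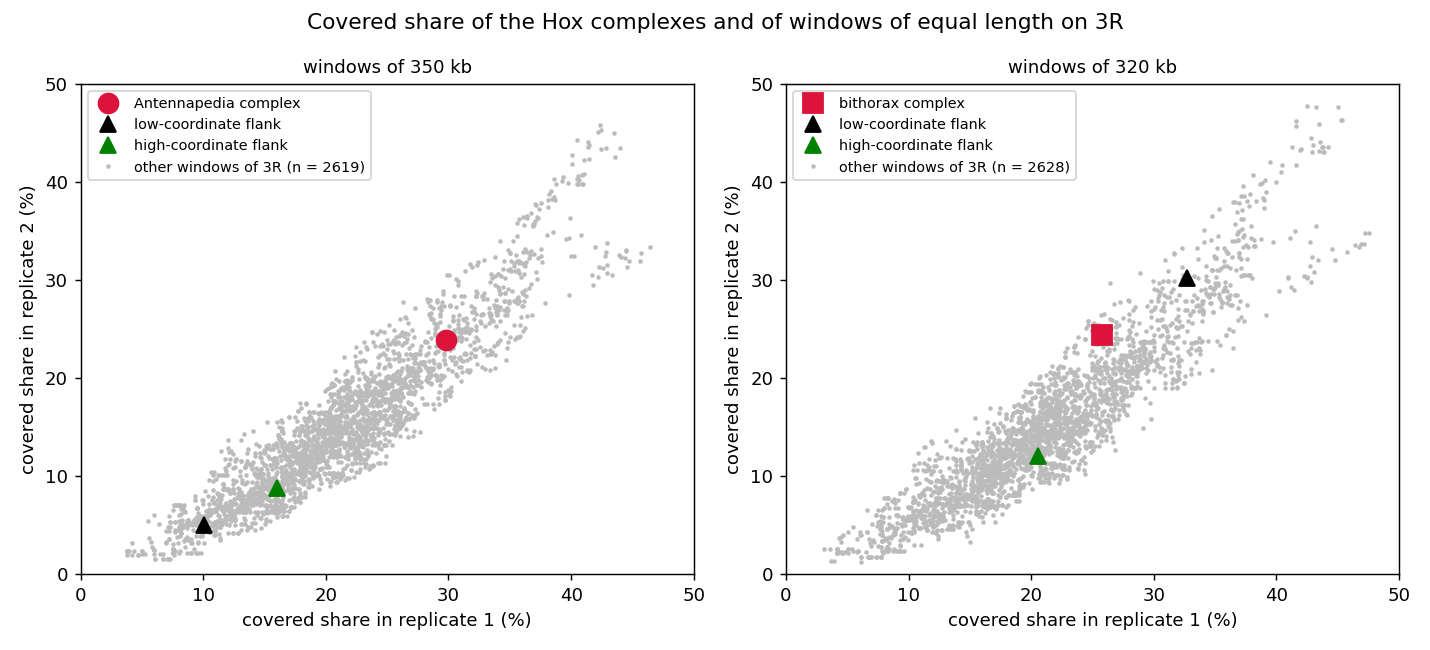
Percent of bases in H3K23ac regions in replicate 1 (horizontal axis) and replicate 2 (vertical axis) for the Antennapedia complex (left, red circle), the bithorax complex (right, red square), the window of equal length on either side of each (triangles) and all other windows of 3R (grey dots). The Antennapedia complex lies at 29.8% and 23.9%, far above both of its flanks, and the bithorax complex at 25.8% and 24.4%, below its low-coordinate flank and above its high-coordinate flank.

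By the replicate lists, the Antennapedia complex was covered more densely than the sequence on either side of it, and the bithorax complex more densely than the sequence on its Abd-B side only. Over the Antennapedia complex the mean covered share of 26.8% compared with 7.51% ± 3.55 (SD, n = 2) in the 350 kb beyond its lab side and 12.4% ± 5.12 in the 350 kb beyond its Antp side. The complex was above both flanks in both replicates, with 29.8% against 10.0% and 16.0% in replicate 1, and 23.9% against 4.99% and 8.81% in replicate 2. Over the bithorax complex the mean of 25.1% compared with 31.5% ± 1.80 in the 320 kb beyond its Ubx side and 16.3% ± 6.05 in the 320 kb beyond its Abd-B side. The flank on the Ubx side was denser than the complex in both replicates, with 32.7% and 30.2%. In the combined list the bithorax complex and this flank were nearly level, at 63.6% and 62.7%, and the flank on the Abd-B side had 43.6%. The Antennapedia complex had 65.5% in that list, against 36.6% beyond its lab side and 38.5% beyond its Antp side.

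In number of combined regions both complexes were at the top of the range of 3R. The 90 combined regions of the Antennapedia complex were more than any other window of its length on 3R held, where the count ran from 27 to 87 with a median of 57. The 81 combined regions of the bithorax complex equalled the highest count among windows of its length, which ran from 24 to 81 with a median of 52, and 2 of the 2628 windows reached it. In replicate 1 the Antennapedia complex had 48 regions and the median window 33, and in replicate 2 it had 42 and the median window 24. The bithorax complex had 43 regions in replicate 1 against a median of 30, and 37 in replicate 2 against a median of 21. Regions per Mb averaged 129 ± 12.1 (SD, n = 2) in the Antennapedia complex and 125 ± 13.3 in the bithorax complex, against 81.8 ± 18.0 in the rest of 3R.

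The regions themselves were of ordinary width and of slightly low score. Each region carries 1 score given by the authors, whose log2 scale was inferred from the values. The score is used here only to set regions of the same list beside each other. The median score in the Antennapedia complex was 0.62 in replicate 1 and 0.64 in replicate 2, against 0.65 in the rest of 3R in both lists. The bithorax complex had 0.62 in both. The difference from the rest of 3R was -0.017 ± 0.013 on the log2 scale (SD, n = 2) in the Antennapedia complex and -0.030 ± 0.0044 in the bithorax complex. Among regions at least as wide as the median of their list it was -0.032 in the Antennapedia complex and -0.012 in the bithorax complex. Medians in the combined list were 0.43 in each complex and 0.45 in the rest of 3R. The spread of scores between regions was much larger than these differences: the interquartile range of replicate 1 scores ran from 0.55 to 0.69 in both complexes and from 0.58 to 0.73 in the rest of the arm. The median score of the Antennapedia complex was at or above that of 18.3% of windows in replicate 1, 40.3% in replicate 2 and 7.56% by the combined regions. For the bithorax complex these were 12.8%, 19.3% and 10.2%, so that its place was low by all 3 lists while that of the Antennapedia complex in replicate 2 was nearer the middle.

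Median widths in the Antennapedia complex were 1824 bp in replicate 1 and 1764 bp in replicate 2, against 1842 and 1807 bp in the rest of 3R. For the bithorax complex they were 1704 bp and 2022 bp. Regions of at least 5 kb numbered 1 of 48 in replicate 1 and 1 of 42 in replicate 2 of the Antennapedia complex, and 1 of 43 and 0 of 37 of the bithorax complex, against 3.49% and 3.35% of regions in the rest of 3R. In the combined list 9 of 90 and 8 of 81 regions were that wide, 10.0% and 9.88%, beside 9.89% in the rest of the arm. The widest combined region of the Antennapedia complex, of 9201 bp at 2759304 to 2768504, lay toward its Antp side, and that of the bithorax complex, of 11695 bp at 12484686 to 12496380, lay near the end of its Ubx side.

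**Figure D2:**
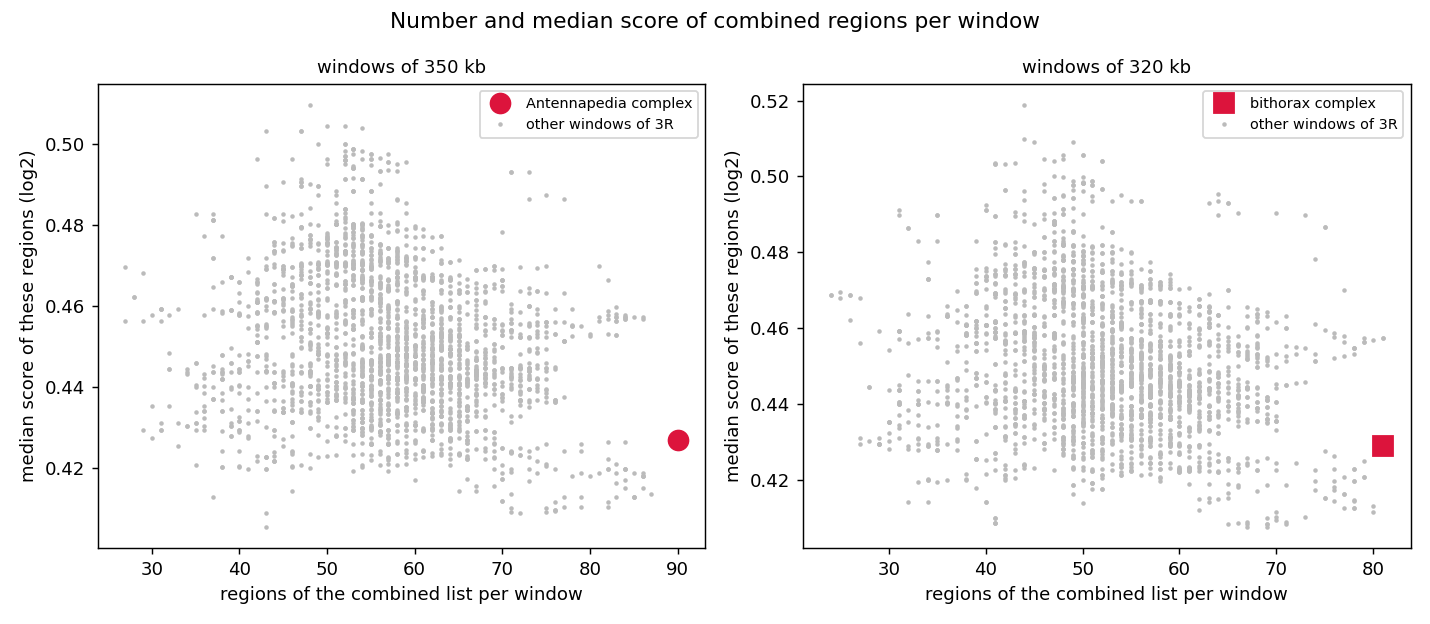
Number of combined regions per window (horizontal axis) and their median score on the log2 scale (vertical axis) for the Antennapedia complex (left, red circle), the bithorax complex (right, red square) and the other windows of 3R (grey dots). The complexes lie at the right edge of the clouds, with 90 and 81 regions, and in the lower part, with a median score of 0.43 each.

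Along the bithorax complex the covered share fell from the Ubx side to the Abd-B side in both replicates. With the window divided into 4 parts of 80 kb, the covered share in replicate 1 was 40.2% in the part nearest Ubx, then 26.2%, then 19.7%, and 17.1% in the part nearest Abd-B. For replicate 2 it was 46.1%, 30.1%, 15.7% and 5.88% in the same order. The mean of the replicates was 43.1% ± 4.18 (SD, n = 2) at the Ubx end and 11.5% ± 7.93 at the Abd-B end, a difference of 31.6 ± 12.1 percentage points. The difference was 19.0 points with the bounds moved out by 20 kb on each side, and 15.3 points without the regions at or under the median score of their list. The combined list ran in the same order, with 83.1%, 64.6%, 53.7% and 52.9%. The division was chosen after the values were seen, so the shares of windows that follow are descriptions only. A difference between first and last part at least as large, of either sign, was found in 6.74% of the other windows of 3R. A steady rise or fall over 4 such parts in both replicates was found in 3.16%, and one that was also at least as steep in 1.29%.

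The part nearest Ubx had a mean covered share at or above that of 94.9% of other 80-kb windows of 3R, whose median was 15.6%, and the part nearest Abd-B at or above that of 34.7%. Beyond the window the pattern did not go on as a slope: the adjoining 80 kb had 26.7% ± 12.4 on the Ubx side and 23.9% ± 9.47 on the Abd-B side, and the next 80 kb beyond the Ubx side had 48.6% ± 6.91. Replicate 2 had 17 region midpoints in the part nearest Ubx and 2 in the part nearest Abd-B, and replicate 1 had 17 and 8. The combined list went the other way in number, with 16 regions nearest Ubx and 23 nearest Abd-B, although the 23 covered fewer bases. The shared sequence fell too, with 19.8 kb, 10.6 kb, 5.32 kb and 2.29 kb covered in both replicates from the Ubx side to the Abd-B side. It cannot exceed what each replicate covers, so its fall is not a separate sign of the slope.

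**Figure D3:**
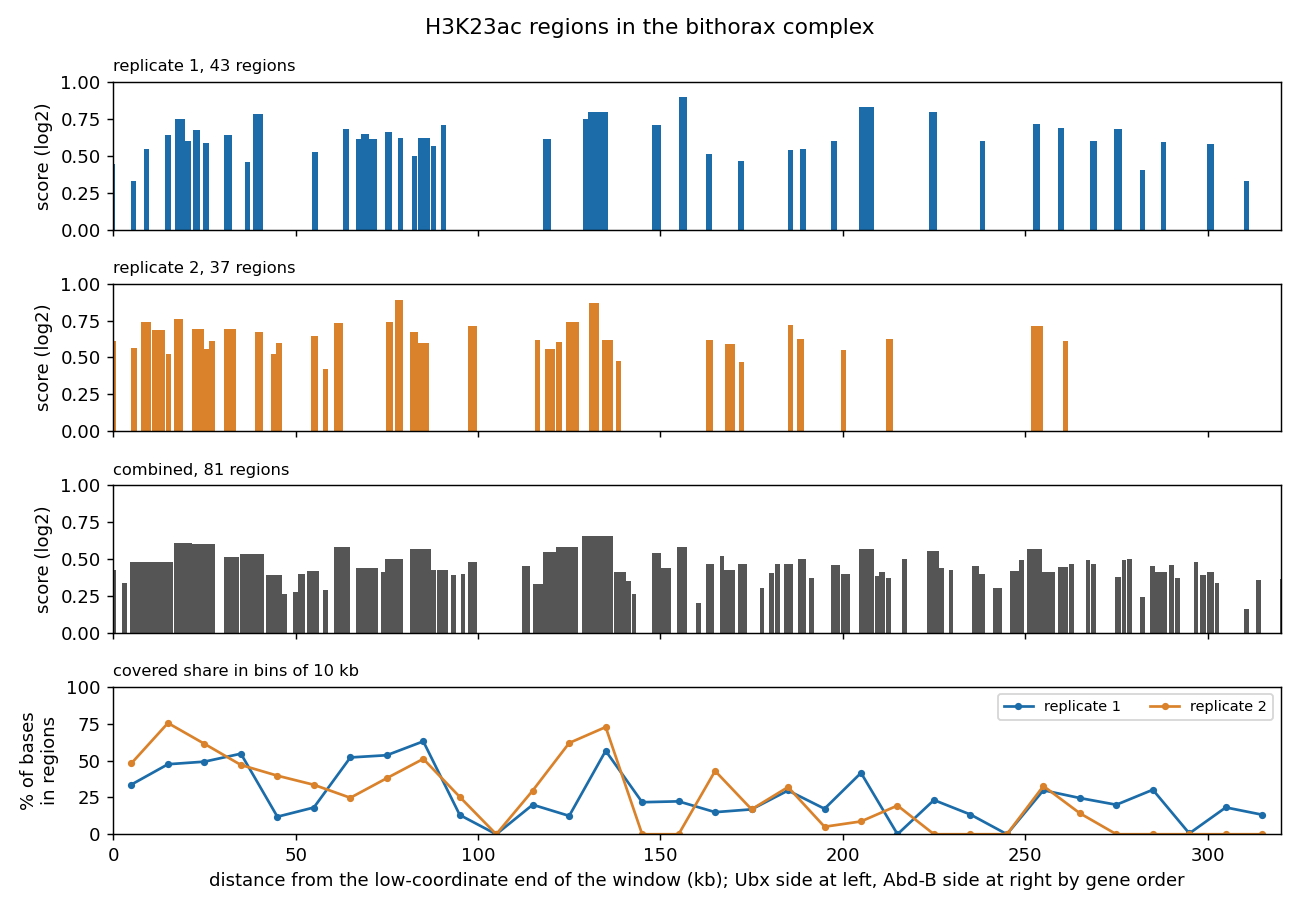
Regions of the bithorax complex in replicate 1, replicate 2 and the combined list, each drawn at its distance in kb from the low-coordinate end of the window with its score (log2) as height, and at the bottom the percent of each 10-kb bin in regions of replicate 1 and replicate 2. Regions of both replicates crowd on the Ubx side, at left, and replicate 2 has no region in the last 58.2 kb on the Abd-B side.

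The Antennapedia complex had no such slope. Its 4 parts of 87.5 kb had mean covered shares of 21.5% ± 7.44 (SD, n = 2) nearest lab, then 31.7% ± 8.74, then 23.1% ± 5.64, and 31.1% ± 5.01 nearest Antp. All 4 were above the median of 15.6% of other windows of this length. The part nearest Antp was the only one of the 4 with a higher share in replicate 2, 34.7%, than in replicate 1, 27.6%, and in the combined list it was covered to 82.8%, against 58.0% to 61.0% in the other parts. Beyond the bounds the mean covered share was lower on both sides. The adjoining 87.5 kb had 8.85% ± 8.20 beyond lab and 16.8% ± 5.60 beyond Antp. The part of the complex nearest lab differed from the flank beside it in both replicates, with 26.8% against 14.7% in replicate 1 and 16.2% against 3.06% in replicate 2. At the Antp side the difference was smaller in replicate 1, with 27.6% in the complex against 20.8% in the flank. Replicate 2 had 34.7% against 12.8% there.

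**Figure D4:**
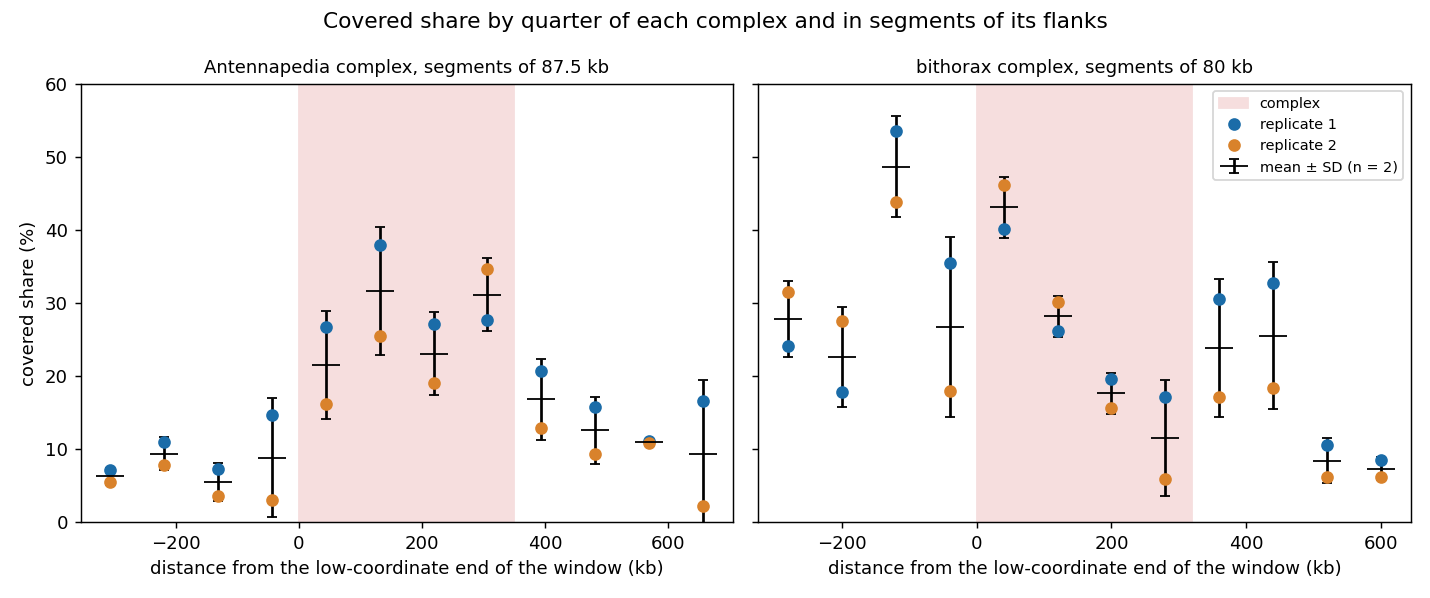
Percent of bases in H3K23ac regions in the 4 parts of each complex (shaded) and in segments of the same length in its flanks, against distance in kb from the low-coordinate end of the window; circles are the replicates, bars the mean ± SD (n = 2). The bithorax complex (right) has means of 43.1%, 28.2%, 17.7% and 11.5% across its 4 parts, and the Antennapedia complex (left) stays between 21.5% and 31.7%, above the segments on either side.

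By the share of covered bases in common, and without regard to density, agreement of the replicates over the complexes lay near the middle of its range on 3R. Both replicates covered 47.1 kb of the 140.9 kb that either covered in the Antennapedia complex, which is a Jaccard index of 0.334, and 38.0 kb of 122.7 kb in the bithorax complex, an index of 0.310. The index was 0.353 over the rest of 3R, and it was at or below the value of the complex in 48.7% of windows for the Antennapedia complex and in 40.6% for the bithorax complex. Both the index and the share of regions that meet another tend to rise with the covered share. The mean covered share was 26.8% and 25.1% in the complexes, against 17.4% and 17.3% in the median windows. Agreement at equal covered share was not tested. Of the replicate 2 regions, 28 of 42 in the Antennapedia complex (66.7%, 95% Wilson interval 51.6 to 79.0%) and 24 of 37 in the bithorax complex (64.9%, 48.8 to 78.2%) shared a base with replicate 1. In the rest of 3R this was 73.1% (71.0 to 75.0%). Without regions at or under the median score of their list, 6 of 14 in the Antennapedia complex (42.9%, 21.4 to 67.4%) and 6 of 15 in the bithorax complex (40.0%, 19.8 to 64.3%) did so, against 51.9% (48.5 to 55.3%) in the rest of 3R, so that the share was lower there too. Of the replicate 1 regions, 27 of 48 (56.2%, 42.3 to 69.3%) and 23 of 43 (53.5%, 38.9 to 67.5%) shared a base with replicate 2, against 52.8% (50.9 to 54.7%) in the rest of 3R. These intervals cover counting error only, and they are wide enough to hold the values of the rest of the arm in every case.

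By the Jaccard index, agreement was uneven inside each complex. The Jaccard index of the 4 parts of the Antennapedia complex was 0.147 nearest lab, then 0.551, 0.301 and 0.321 nearest Antp. The bithorax complex had 0.403 nearest Ubx, then 0.307, 0.232 and 0.142 nearest Abd-B, so that it fell with the covered share. The index tends to be lower where less is covered, so this order does not by itself show worse agreement toward Abd-B. Agreement at equal covered share was not tested. The scores of overlapping region pairs had a Spearman's rho of 0.176 over 27 pairs in the Antennapedia complex and 0.495 over 23 pairs in the bithorax complex, against 0.315 over 1257 pairs in the rest of 3R. These correlations are across regions that share their libraries, and are given as descriptions. In total, though not part by part, the replicates covered the bithorax complex to a like share. The share in replicate 1 was 1.05 times that in replicate 2 in the bithorax complex and 1.25 times in the Antennapedia complex, against 1.40 times in the rest of 3R, and 5.71% of windows had a ratio at or below that of the bithorax complex. Within it the differences ran both ways: replicate 2 had the higher share in the 2 parts toward Ubx and replicate 1 in the 2 parts toward Abd-B, with 17.1% in replicate 1 and 5.88% in replicate 2 in the last.

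Sequence covered in both replicates formed 29 stretches in the Antennapedia complex, with a median length of 1443 bp, and 24 in the bithorax complex, with a median of 1517 bp, beside a median of 1514 bp in the rest of 3R. The longest in the Antennapedia complex was 2596889 to 2602387, of 5499 bp. It was the only shared stretch of at least 5 kb among the 29 and 24 of the complexes, beside 18 of 1545 in the rest of 3R. It was a complete region of replicate 2, with a score of 0.73, inside a region of replicate 1 of 6989 bp that also scored 0.73. It lay 117 kb from the lab end of the window. Next came 2751619 to 2754983, of 3365 bp, and 2689119 to 2692211, of 3093 bp. The last of these was the highest-scoring replicate 1 region of the complex, at 0.86 (replicate 2, 0.66), and held most of the highest-scoring combined region, 2688886 to 2692318 at 0.67. The other members of the 8 longest had 1988 to 2249 bp and started at 2502476, 2574606, 2578568, 2589215 and 2780468. Of the 29 stretches, 3 began in the part nearest lab, 10 and 5 in the following parts and 11 in the part nearest Antp.

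**Figure D5:**
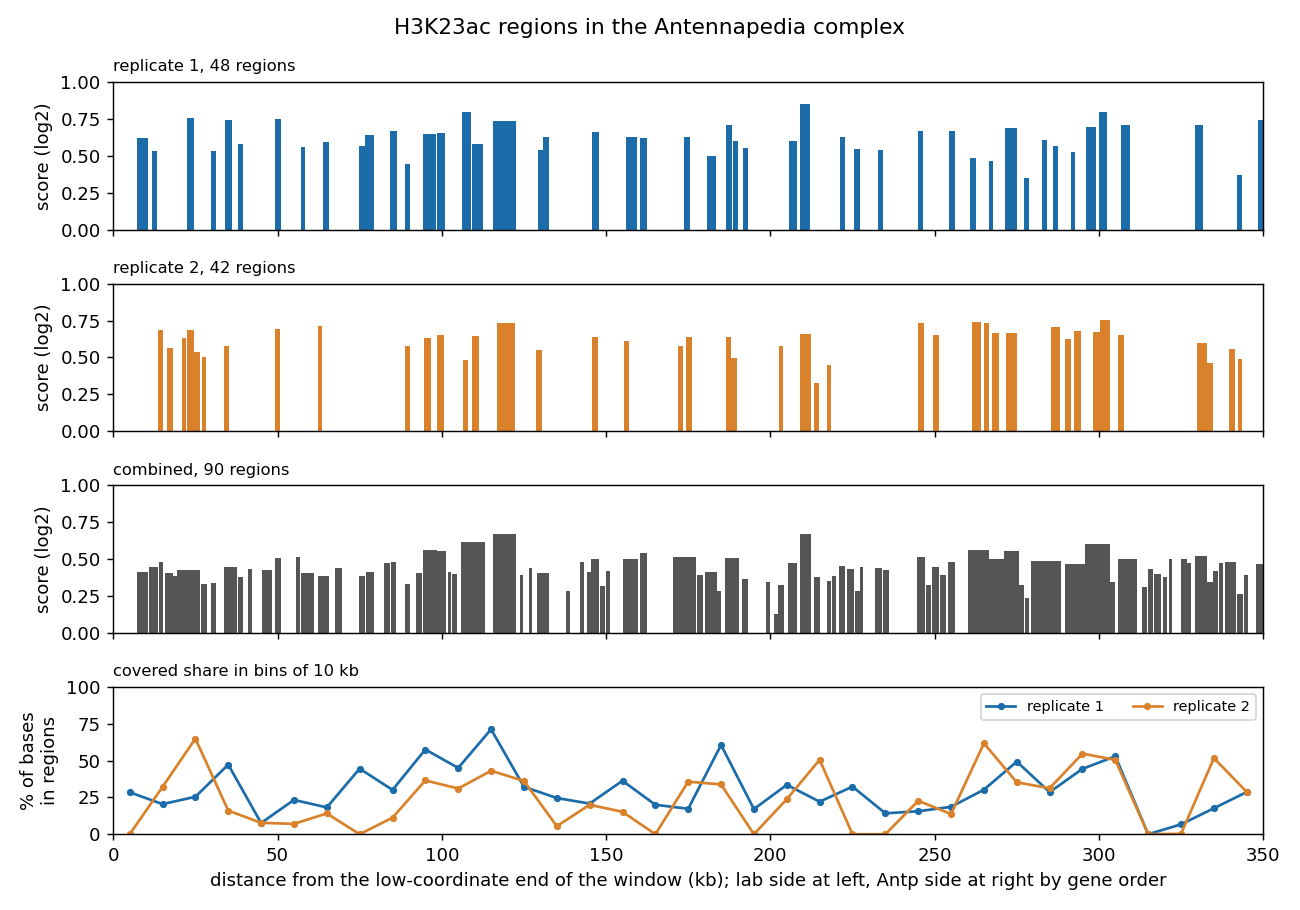
Regions of the Antennapedia complex in replicate 1, replicate 2 and the combined list, each drawn at its distance in kb from the low-coordinate end of the window with its score (log2) as height, and at the bottom the percent of each 10-kb bin in regions of replicate 1 and replicate 2. Regions run through the whole window from the lab side, at left, to the Antp side, at right, and the longest gap free of both replicates, of 19.9 kb, starts 309 kb from the left end.

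The longest shared stretches of the bithorax complex were 12563669 to 12566591, of 2923 bp, and 12610353 to 12613162, of 2810 bp. The second lay within the highest-scoring combined region of the complex, 12608638 to 12617126, with a score of 0.66. There replicate 1 scored 0.80 in a region of 5494 bp, its only region of at least 5 kb in the complex, and replicate 2 scored 0.87. The remaining members of the 8 longest started at 12496890, 12501804, 12510371, 12518761 and 12534443, all in the part nearest Ubx, and at 12732164 in the part nearest Abd-B. Of the 24 shared stretches 13 began in the part nearest Ubx, then 5, 4 and 2 toward Abd-B. In replicate 2 the highest-scoring region of the complex was 12557378 to 12559437, at 0.89, which ranked 16th of 1961 on 3R and was overlapped by a replicate 1 region scoring 0.63. In replicate 1 it was 12635098 to 12637251, at 0.90, which ranked 82nd of 2667 and met no region of replicate 2. The next regions by score in replicate 1, 12684414 to 12688581 at 0.83 and 12703571 to 12705893 at 0.80, were found in replicate 1 alone as well, and these 3 were chosen for mention after their values were seen.

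Among the 5 highest-scoring combined regions of the Antennapedia complex all overlapped regions of both replicates. After 2688886 to 2692318 these were 2595456 to 2602670 at 0.67, 2585870 to 2593144 at 0.61, 2775712 to 2783282 at 0.60 and 2574258 to 2578438 at 0.56. Of the 5 highest in the bithorax complex 4 did so, namely 12608638 to 12617126, 12496750 to 12501544 at 0.61, 12501594 to 12508004 at 0.60 and 12540470 to 12544980 at 0.58. The other, 12634644 to 12637328 at 0.58, lay at the region of replicate 1 that replicate 2 lacked. None ranked above 107th of the 4618 combined regions of 3R. Over all combined regions, 26 of 90 (28.9%) in the Antennapedia complex and 18 of 81 (22.2%) in the bithorax complex overlapped a region of both replicates, against 24.8% in the rest of 3R, and 36 of 90 (40.0%) and 37 of 81 (45.7%) overlapped neither, against 43.6%. Regions found in both replicates were wider, with medians of 4245 and 4191 bp, than those found in neither, with 1322 and 1323 bp, and the rest of 3R had nearly the same medians, 4061 and 1329 bp. A wider region is more likely to meet another by its width alone, and the part of this in the difference was not tested.

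Gaps without regions were short in both complexes. The longest stretch free of regions of either replicate was 19.9 kb in the Antennapedia complex (2789465 to 2809329) and 15.8 kb in the bithorax complex (12579682 to 12595497), where the median window of the same length on 3R had a longest gap of 39.2 and 38.2 kb. The longest gap was at or below that of the complex in 5.19% of windows for the Antennapedia complex and in 1.60% for the bithorax complex. The gap of the Antennapedia complex, on its Antp side, was covered to 63.9% by 9 regions of the combined list, and so was not free of called sequence. The gap of the bithorax complex held 3 combined regions that covered 16.1% of it.

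Of the stretches free of regions in all 3 lists, the longest was 12579765 to 12592191 in the bithorax complex, of 12.4 kb, which began 99.8 kb from the Ubx end of the window. It held the only 10-kb bin of either complex with no region in any list, and lay between bins with mean covered shares of 19.2% and 24.9%. The next in the bithorax complex had 6.93, 5.59, 5.36 and 5.09 kb and began at 12783163, 12697517, 12710097 and 12794663. Those of the Antennapedia complex began at 2716119, 2642515, 2480000, 2673231 and 2612719, and had 8.48, 7.89, 7.15, 5.45 and 5.19 kb. The gap at 2480000 starts at the bound of the window, so that its 7.15 kb are the length inside the window only. The Abd-B end differed between the replicates: from 12741807 to the end of the window, a stretch of 58.2 kb cut off by the bound, replicate 2 had 0 regions, replicate 1 had 6 that covered 17.2% and the combined list had 18 that covered 44.2%. The next longest gap of a single replicate list in either complex was 37.9 kb, also in replicate 2 of the bithorax complex, and the longest of replicate 1 there was 26.6 kb (12571308 to 12597919).

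Among bins of 10 kb the most covered of the Antennapedia complex lay 110 to 120 kb from its lab end, with 57.2% ± 19.9 (SD, n = 2), followed by those at 300 to 310 kb with 51.7% ± 1.75 and at 290 to 300 kb with 49.6% ± 7.31. The most covered of the bithorax complex were the bins at 130 to 140 kb from the Ubx end, with 64.8% ± 11.4, at 10 to 20 kb with 61.6% ± 19.8 and at 80 to 90 kb with 57.2% ± 8.43. At least 50% was reached in 2 of 35 bins of the Antennapedia complex and in 5 of 32 bins of the bithorax complex. Bins without a region of either replicate numbered 1 and 2. Replicate 2 alone left 7 bins of the Antennapedia complex and 11 of the bithorax complex empty, and replicate 1 left 1 and 3. Bins elsewhere on 3R were not counted, so whether these numbers are high or low for the arm cannot be told. The lists give no signal between regions, so an empty bin holds no called region and may still carry the mark at a lower level. Read depth is unknown, and its part in the differences between the lists was not tested.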

How the data were processed

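Enriched regions were deposited as 1 list for each ChIP replicate and 1 combined list, on FlyBase release 5 per the file headers. Bowtie 0.12.7 is named in the submitters' processing notes, with no role. Not given in the sources used here are the region caller, its threshold and how the combined list was made. The deposited score is on a log2 scale, found from the values: after subtracting a score of the same list and taking the difference as a power of 2, 98.8 to 100% of 500 scores per list gave a fraction of whole numbers with a denominator of at most 20000 (relative tolerance 1e-12), and at most 0.4% did as powers of e or of 10. Read depth is unknown, input values were not used here, and 0 columns were left unused for lack of a sample. The bounds of the complexes were given on release 5 and were not checked against an annotation. Gene names and order came from a Release 6 table, and its coordinates were not used. No sequence is printed because no release 5 genome was used here.

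Covered bases were counted within the bounds, scores and widths over regions with at least 1 base inside. Comparison windows of equal length were placed every 10 kb on 3R outside both complexes. There are 2 replicates of 1 condition, so no p-value was computed, and values are means ± SD. Regions are named by rule: the 8 longest shared stretches, the 5 highest-scoring combined regions, the top region of each replicate and the 5 longest gaps of each complex, and the 3 most covered bins. The complexes and these rules were chosen with earlier results of these data known. Window functions were tested on simulated data. The calculations ran on pandas 2.3.3 with numpy 2.4.6, intervals came from scipy 1.17.1 and plots from matplotlib 3.10.9, under Python 3.11.15.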

Additional observations from a re-analysis of the deposited data

How the results depend on the processing

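Of 60 alternative values, 32 stayed within the replicate SD or the interval of the reported value and 28 moved. None of the score differences or of the differences between the ends of the bithorax complex changed sign. The other values are shares and lengths, which cannot change sign. Leaving out 1 of 2 replicates stays within their SD for a mean by construction. Values are given for the Antennapedia complex, then the bithorax complex. With regions at or under the median score of their list left out the covered share was 10.5% and 11.6%, the share of windows at or below 60.4% and 66.2% (reported, 86.2% and 81.7%), and the shared replicate 2 regions 42.9% and 40.0%. With the combined list the covered share was 65.5% and 63.6% and the share of windows at or below 95.9% and 94.8%. For the bithorax complex the covered share was 23.9% with bounds 20 kb wider on each side and 26.1% with regions under 1000 bp apart merged. For the Antennapedia complex the share of windows at or below was 86.7% with windows laid end to end, 87.6% without the 1 Mb at the centromere-side end, 86.8% with 2L and 3L added, and 86.1 to 86.5% on leaving out a replicate. The score difference was -0.032 and -0.012 among regions at least as wide as the median, and -0.019 in the combined list for the bithorax complex. The longest gap was 8.48 and 12.4 kb over all 3 lists, 38.2 and 62.8 kb between bases covered in both replicates, and on leaving out a replicate 19.9 to 26.5 kb and 26.6 to 58.2 kb, since fewer lists leave longer gaps. The fall from the Ubx to the Abd-B end, with alternatives chosen after seeing the data, was 15.3 points above the median score and 19.0 points with the wider bounds. For the other changes the cause was not tested. Depth of the libraries is unknown. No paired analysis was possible because the input libraries gave no values here.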
